A study of Homo sapiens with 9 samples.

Results

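The nuclear genes for respiratory complexes II to V were followed in RNA that co-purified with CNOT7. They are the protein_coding rows whose symbol starts with SDHA, SDHB, SDHC or SDHD, with UQCR, with COX4 to COX8, or with ATP5F1, ATP5M, ATP5P or ATP5IF, together with CYC1, and they number 52 of the 30956 genes in the table (16232 of them protein_coding). They divide into 4 complex II subunits, 4 complex II assembly factors whose symbols share the SDHA stem, and 10, 14 and 20 genes of complexes III, IV and V. The 52 genes lie on 21 chromosomes in RefSeq (GRCh38.p14).

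The study used HEK293T, a human embryonic kidney cell line, and RNA immunoprecipitation sequencing (RIP-seq), in which RNA bound to a tagged protein is recovered with an antibody to the tag and sequenced. The bait was V5-tagged CNOT7 with the D40A substitution, which impairs the nuclease, and 3 RIP libraries were set against 3 input libraries of cytoplasmic RNA. All cells grew in DMEM with 10% serum and were kept with or without doxycycline at 3 µg/mL for 24 h. The labels give 6 input libraries, 3 with and 3 without doxycycline. The 3 input columns used here are named only by number, and neither the names nor the labels tell whether those cells, or the RIP cells, had received doxycycline. The labels also do not state what drove the tagged protein or whether the cells were 1 clone. The 9 libraries are labelled RIP or input, and none as an immunoprecipitate from untagged cells, so recovery without the tag could not be assessed. The cells also still express their own CNOT7 gene, which a read per gene does not separate from the tagged form.

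CCR4-NOT removes poly(A) tails from cytoplasmic mRNA, and CNOT7 is among its nuclease subunits. Complexes II to V sit in the inner mitochondrial membrane: II oxidises succinate, III passes electrons from ubiquinol to cytochrome c, IV reduces oxygen, and V makes ATP from the proton gradient. Complex II is made wholly from nuclear genes, whereas III, IV and V combine subunits translated in the cytosol with a few encoded in mitochondrial DNA. The nuclear mRNAs are mostly short and abundant, and some are known to be translated at the mitochondrial surface.

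Reads assigned to genes numbered 37140622, 40764899 and 38229122 in RIP, and 38911674, 37290120 and 38918356 in input, and the 3 reads that bound a gene without any were worth 0.0736 to 0.0808 CPM (counting error only). Mitochondrially encoded RNA made up 0.931% to 1.12% of RIP reads and 18.6% to 26.6% of input reads. RIP replicate 2 stood apart at the low end, with 14786 genes without a read against 6398 and 6720 in the other RIP libraries. CNOT7 itself had 79593, 81128 and 100226 normalized counts in RIP, against 24412, 24627 and 25361 in input, and CNOT1, the scaffold of the complex, had a log2 difference of 2.04. All 5 HEK293T markers (NEFL, NEFM, PAX2, LIN28B and EYA1) were present in every library, at 419 normalized counts or more. Among markers of liver, muscle and fibroblasts with a row, ALB, CKM, DCN and ACTA1 reached at most 10.8 and COL1A1 lay between 322 and 545.

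The promoters of the members were examined because these genes moved together in the comparison described further on. Many nuclear respiratory genes are known targets of the transcription factors NRF1 and GABP, an ETS-family protein. RefSeq promoters of 250 bases before to 50 bases after the start were at hand for 39 of the 48 members that passed the expression filter (45 promoters), and for 16319 promoters of all tested protein_coding genes. The NRF1 motif, GCGCA followed by any base and GCGC, was searched on both strands and occurred in 12 of 45 member promoters (26.7%) and in 9.24% of all promoters. It is shown in capitals in 80 bases upstream of the start for a core protein of complex III and for a stalk subunit of complex V, both read 5′ to 3′ on the gene's strand in GRCh38.p14:
UQCRC1 (chr3:48609647-48609726, minus strand): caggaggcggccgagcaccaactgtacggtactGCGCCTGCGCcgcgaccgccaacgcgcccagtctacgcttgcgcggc
ATP5PO (chr21:33915805-33915884, minus strand): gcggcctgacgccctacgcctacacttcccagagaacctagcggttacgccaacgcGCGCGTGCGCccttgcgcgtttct

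The ETS motif CCGGAAGT, which reads ACTTCCGG on the reverse strand and was searched on both, occurred in 11 of 45 member promoters (24.4%) and in 6.83% of all promoters. The same 80-base window is shown for 2 members of complex III and 2 of complex IV, with the motif in capitals. SDHD and UQCR11 held both motifs.
UQCRH (chr1:46303618-46303697, plus strand): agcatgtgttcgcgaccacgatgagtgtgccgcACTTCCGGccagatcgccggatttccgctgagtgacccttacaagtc
UQCRQ (chr5:132866562-132866641, plus strand): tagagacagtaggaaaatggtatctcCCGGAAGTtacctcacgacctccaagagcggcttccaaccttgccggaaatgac
COX8A (chr11:63974540-63974619, plus strand): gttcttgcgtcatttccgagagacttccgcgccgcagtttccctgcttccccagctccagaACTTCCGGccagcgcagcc
COX5B (chr2:97645982-97646061, plus strand): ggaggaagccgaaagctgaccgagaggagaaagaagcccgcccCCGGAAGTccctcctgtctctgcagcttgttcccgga

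A C at the RefSeq start followed by 4 or more pyrimidines, the pattern that defines 5′ terminal oligopyrimidine mRNAs such as those of ribosomal proteins, was found at 8 of 45 member starts (17.8%) and at 4.99% of all starts. For these 8 genes the first 25 bases from the RefSeq start with this pattern are shown, with the pyrimidine tract in capitals. The group is referred to again beside its RIP values. For COX7A2L and ATP5MC2 the start shown lies inside the RefSeq gene span and not at its outer end. A RefSeq start need not be the start used in these cells.
UQCRH (chr1:46303698-46303722, plus strand): CTTCTTgatcctgaactgggttagg
COX4I1 (chr16:85799695-85799719, plus strand): CTCTTCCggtcgcgggacaccgggt
COX7C (chr5:86617941-86617965, plus strand): CTTTTCagtccttgcgcaccgggga
COX7A2L (chr2:42361193-42361217, minus strand): CCTTCTCTggggcggtcgcgttggc
ATP5F1E (chr20:59032311-59032335, minus strand): CTTCCTgcggctgaaccgcccggct
ATP5MC2 (chr12:53676059-53676083, minus strand): CCCCTCTCTgtcttctctgcagtgg
ATP5PO (chr21:33915780-33915804, minus strand): CTCTTCCCactcgggtttgacctac
ATP5MG (chr11:118401606-118401630, plus strand): CCTTCCggcgggtgacattcagccg

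RIP was compared with input to ask which RNAs were over- or under-represented in the CNOT7 immunoprecipitate relative to the cytoplasmic pool. The mRNAs of complexes II to V were nearly all lower in RIP. Of the 48 members with a mean of at least 10 normalized counts in RIP or in input, 43 fell, 0 rose and 5 did not pass the test (limma-trend on log2(normalized count + 1), Benjamini-Hochberg adjusted p under 0.05 over 17669 genes). The other 4 did not reach that mean, and no member reached it in 1 group only. Over all genes tested 19.9% were lower and 21.1% higher, and the lower share was 24.5% among protein_coding genes. The median log2 difference of RIP minus input was -1.68 over the members and -0.07 over all genes. At least 2-fold lower calls were made for 40 of the 48 tested members and for 1772 of the 17669 genes tested. None of the members was higher at an unadjusted p under 0.05 either, and edgeR, DESeq2 and the authors' deposited table each gave 0 higher. These differences are relative within each library and set recovery in the immunoprecipitate against the cytoplasmic pool. They do not measure a change in the level of an RNA in the cells. Bulk libraries also do not show whether recovery varied between cells.

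Every RIP library lay below every input library for 42 of the 48 tested members, against 26.6% of all genes tested. Among the 43 members called lower only SDHD overlapped, by 1 normalized count. All 43 also lay, in each RIP library, below the mean of the 3 input libraries that have no column, a mean derived from the deposited mean over all 9 libraries. Those 43 had been picked as lower from the same RIP libraries, and the share over all genes is not given here. The count is therefore a description and no separate support. The median member stood at percentile 7.17 of the protein_coding genes ranked by log2 difference, and 32 members lay in the lowest 10%. With libraries scaled to equal total counts the median of all genes moved up by 0.48, all genes split into 1631 lower and 6099 higher, and 40 members stayed lower, with a median of -1.18. Many of these genes have processed pseudogenes elsewhere in the genome, and how the authors' counting treated reads that match several places was not stated.

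**Figure D1:**
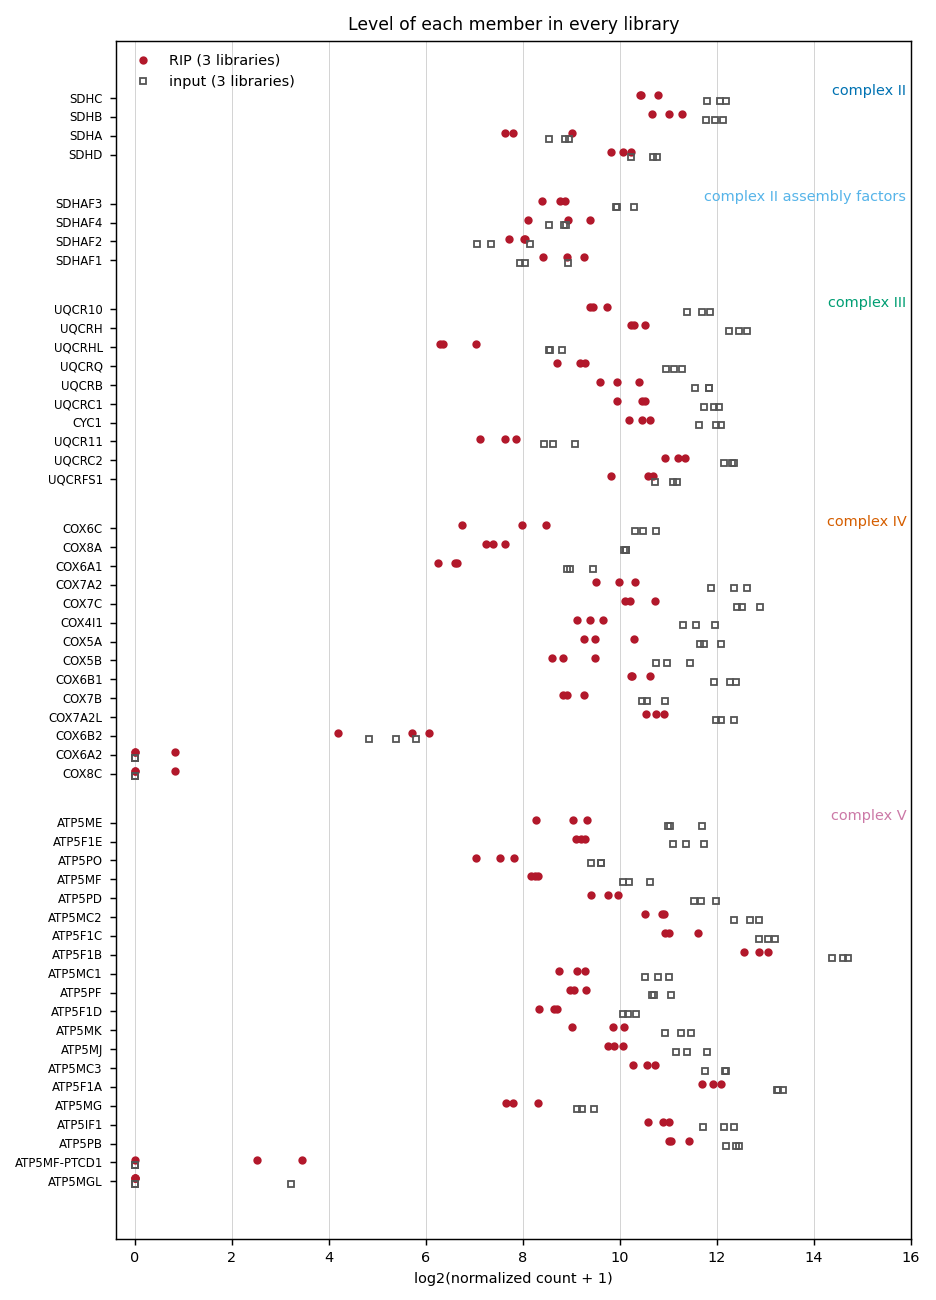
Level of all 52 members in each library, as log2(normalized count + 1) on the horizontal axis, by complex and ordered by the difference. Filled circles are the 3 RIP libraries and open squares the 3 input libraries. The circles lie left of the squares for 42 of the 48 tested members.

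The members were then divided by complex. Complex IV had the lowest median log2 difference, -2.19 over 12 tested members, followed by complex V (-1.71 over 18), complex III (-1.68 over 10) and the complex II subunits (-0.80 over 4). The 4 complex II assembly factors had a median of 0.23. The members of complexes III and V all fell, as did 11 of 12 in complex IV and 3 of 4 complex II subunits, against 1 of 4 complex II assembly factors. Taken library by library against the input mean, the median of all members was -1.82, -1.64 and -1.48 in RIP libraries 1 to 3, so each RIP library showed the shift. No test of a difference between complexes was made.

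**Figure D2:**
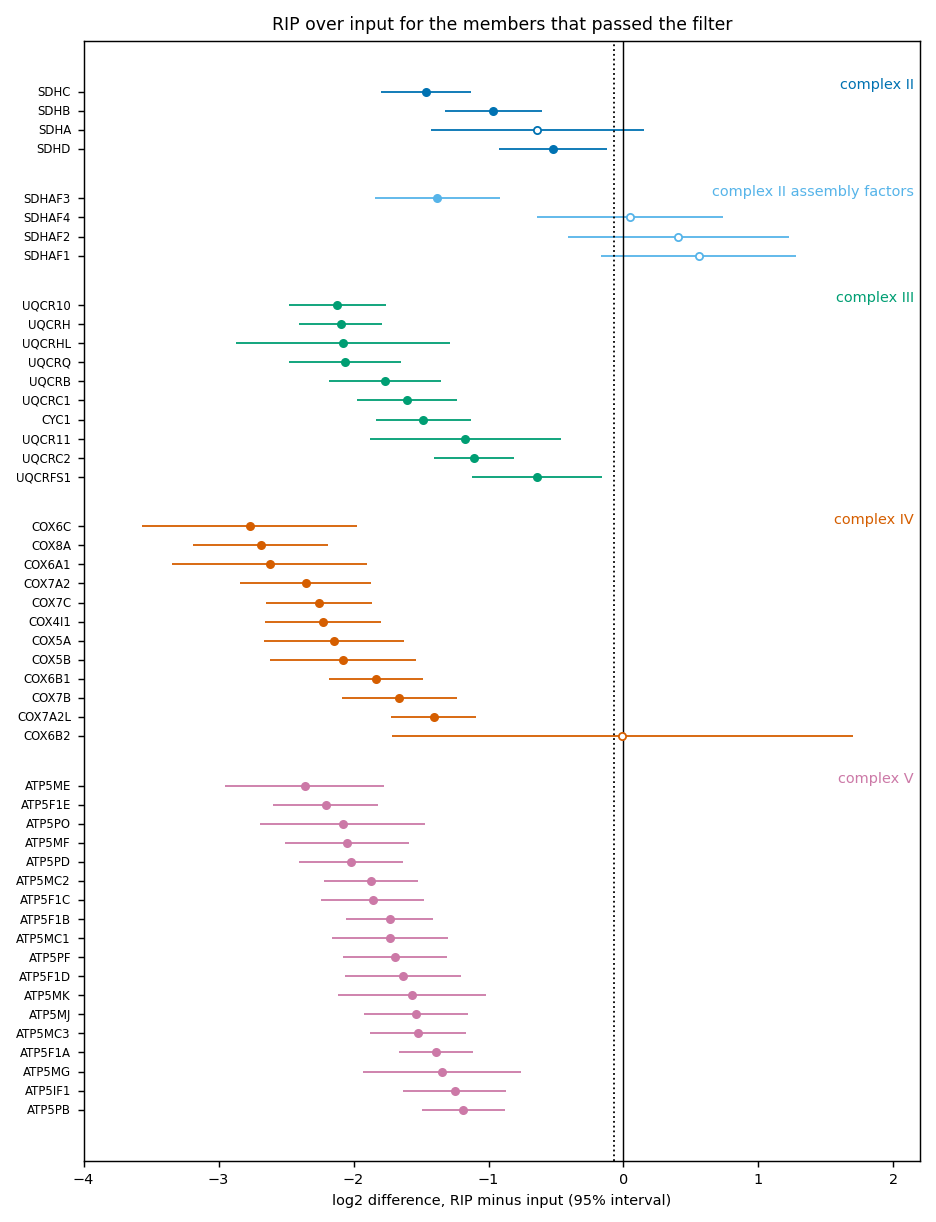
Log2 difference of RIP minus input for the 48 members that passed the filter, with 95% intervals; filled points have an adjusted p under 0.05 and open points do not. The dotted line marks the median of all genes (-0.07) and the solid line 0; 43 filled points lie left of 0 and none right of it.

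Complex II carries its active site on SDHA, the flavoprotein that oxidises succinate, and on SDHB, the iron-sulfur subunit, and is held in the membrane by SDHC and SDHD. SDHC (chr1:161314381-161363206) had 1387, 1361 and 1768 normalized counts in the 3 RIP libraries, against 3550.1, 4257 and 4636 in the 3 input libraries. The groups stood clearly apart, with a log2 difference of -1.46 (SE 0.15, limma adjusted p = 1.4e-05). SDHB (chr1:17018722-17054032) had 1624, 2474 and 2074 in RIP, against 3504, 3960.2 and 4465 in input, again without overlap and 1.95-fold lower in RIP (limma adjusted p = 0.000509).

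The other complex II subunits moved less. SDHD (chr11:112086873-112095794) had 900.1, 1200.4 and 1061 normalized counts in RIP, against 1199.4, 1638 and 1738 in input, so that the highest RIP library met the lowest input library. Its log2 difference of -0.52 (limma adjusted p = 0.0383) was not called when RIP replicate 1 (-0.42), RIP replicate 3 (-0.53), input library 2 (-0.46) or input library 3 (-0.42) was left out, nor under total-count scaling (-0.03). SDHA (chr5:218320-268746) had 196, 516 and 222 in RIP, against 463, 494 and 371 in input. RIP replicate 2 lay above all 3 input libraries and the other RIP libraries below them, which left a log2 difference of -0.64 (limma adjusted p = 0.186). Without RIP replicate 2 the difference was -1.07 (limma adjusted p = 0.00997). SDHA has near-identical pseudogene copies, and reads could be split among them or lost.

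Of the complex II assembly factors 1 of 4 fell. SDHAF3 (chr7:97117698-97181763), which helps to mature the iron-sulfur subunit SDHB, had 467, 434 and 332 normalized counts in RIP, against 968, 982 and 1253 in input, and fell by 1.38 on the log2 scale (limma adjusted p = 0.000248). Its groups did not overlap. SDHAF1 (chr19:35995188-35996312), which acts on SDHB as well, had 479, 338 and 614 in RIP, against 243, 263 and 487 in input. SDHAF2 (chr11:61430124-61446733), needed to attach the flavin to SDHA, had 262, 209 and 257 in RIP, against 133, 161 and 281 in input. SDHAF4 (chr6:70566930-70598428), which binds the flavin-loaded SDHA, had 484, 274 and 668 in RIP, against 369.5, 458 and 471 in input. The groups overlapped for SDHAF1, SDHAF2 and SDHAF4, whose log2 differences were 0.56, 0.41 and 0.05 with limma adjusted p of 0.209, 0.418 and 0.913. Their 95% intervals ran from -0.17 to 1.28, -0.41 to 1.23 and -0.64 to 0.74. Under total-count scaling SDHAF1 was higher in RIP (1.05, limma adjusted p = 0.0173), and SDHAF4 took a negative sign without RIP replicate 1, RIP replicate 3 or input library 1.

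All 10 complex III genes fell. The 6 small subunits had a median log2 difference of -2.07, the core proteins UQCRC1 and UQCRC2 a median of -1.36, and the redox subunits CYC1 and UQCRFS1 a median of -1.06. UQCR10 (chr22:29767369-29770413), a small subunit next to cytochrome c1, had 662, 699.7 and 843 normalized counts in RIP, against 2666, 3281 and 3676 in input. UQCRH (chr1:46303698-46316776), the hinge protein between cytochrome c1 and cytochrome c, had 1194, 1452 and 1253 in RIP, against 4833, 5625 and 6260.0 in input. Both were more than 4-fold lower in RIP in the means, at log2 differences of -2.12 and -2.10 (limma adjusted p = 2.19e-06 and 1.02e-06). UQCRH was among the members with an ETS motif and with a pyrimidine start.

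UQCRHL (chr1:15807374-15807649) is an intronless copy of UQCRH, and reads of the pair can be assigned to either. It had 77, 80.5 and 130.1 normalized counts in RIP, against 369.5, 376 and 449 in input, a log2 difference of -2.08 (limma adjusted p = 0.000626). The complex III median without it was -1.60. UQCRQ and UQCRB, the small subunits that hold cytochrome b, had differences of -2.06 and -1.76, and UQCR11 had -1.17. The UQCR11 call was lost without input library 3 (-0.99, limma adjusted p = 0.0721) and under total-count scaling (-0.68).

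Cytochrome c1, made by CYC1, averaged 1377 ± 208 normalized counts in RIP and 3859 ± 606 in input (SD, n = 3 each), a log2 difference of -1.48. The core protein UQCRC1 had -1.60 and UQCRC2 -1.11, and neither gene overlapped between groups. UQCRFS1 (chr19:29205320-29213151), the Rieske iron-sulfur protein that is added last in assembly, was the highest of complex III. It had 893, 1532 and 1638 in RIP, against 1697, 2173 and 2299 in input. RIP replicates 2 and 3 came close to the lowest input library without reaching it, and the log2 difference was -0.64 (limma adjusted p = 0.0361). The call was lost without RIP replicate 1 (-0.36) or 2 (-0.75), without input library 2 (-0.59) or 3 (-0.55), and under total-count scaling (-0.15).

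Complex IV held the 3 members with the lowest log2 differences of all 48. Its nuclear subunits surround a catalytic core made in mitochondria. COX6C (chr8:99877865-99893707), a single-helix subunit, had 250.1, 107 and 356 normalized counts in RIP, against 1264, 1410.3 and 1713 in input, and was 6.82-fold lower in RIP (log2 difference -2.77, SE 0.37, limma adjusted p = 8.1e-05). RIP replicate 2 was lowest, and even the highest RIP library stayed far below every input library. Without RIP replicate 2 the difference was -2.28. COX8A (chr11:63974620-63976543), the ubiquitous form of subunit 8, had 151, 165 and 196 in RIP, against 1109, 1085 and 1107 in input, with a log2 difference of -2.69 (SE 0.23, limma adjusted p = 3.71e-06). The input libraries were almost level and the RIP libraries close to each other. COX6A1, the non-muscle form of subunit 6A, had a difference of -2.62 at 74.5, 95.4 and 98 in RIP, against 502, 479.6 and 694 in input.

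The remaining ubiquitous subunits of complex IV ran from -2.36 to -1.66. COX7C, which carries a pyrimidine start, had -2.26. COX4I1, the regulatory subunit that binds adenine nucleotides, averaged 672 ± 124 in RIP and 3171 ± 742 in input (SD, n = 3 each), a difference of -2.23. COX5A and COX5B had -2.14 and -2.08, and COX7B, encoded on the X chromosome, had -1.66. None of these genes overlapped between RIP and input.

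Some complex IV members have a close relative with a row of its own. COX7A2 (chr6:75237675-75250298) had 1007, 724 and 1267 normalized counts in RIP, against 3773, 5206 and 6322 in input (log2 difference -2.36). COX7A2L (chr2:42335559-42368957), a relative known for joining complexes III and IV into supercomplexes, had 1487, 1716 and 1910.4 in RIP, against 4053, 4314 and 5198 in input (log2 difference -1.41). It was the highest of the complex IV members that fell. COX6B1 (chr19:35648323-35658782), which faces the intermembrane space, had 1211, 1197 and 1573 in RIP, against 3934, 4901 and 5364 in input (log2 difference -1.83). COX6B2 (chr19:55349704-55354719), the testis form, had 66.2, 17.1 and 51.7 in RIP, against 54.3, 27.4 and 40.7 in input, so the groups overlapped. Its log2 difference was -0.01 with a 95% interval of -1.72 to 1.70 (limma adjusted p = 0.993), too wide at this depth to place the gene with the other members or apart from them. COX6A2, the muscle form, and COX8C, a testis form, had at most 0.784 normalized counts in any library and were not tested. COX4I2, COX7A1 and COX7B2 were not analysed here.

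All 18 tested complex V genes fell, over a narrow range of log2 differences from -2.36 to -1.19. ATP5ME (chr4:672436-674276), subunit e, which takes part in pairing ATP synthases, was the lowest. It had 523, 308 and 641 normalized counts in RIP, against 2102, 2036 and 3299 in input (SE 0.27, limma adjusted p = 2.87e-05). ATP5F1E (chr20:59025475-59032335), subunit epsilon of the F1 head, had 619, 543 and 587 in RIP, against 2190.0, 2621 and 3387 in input (log2 difference -2.21, limma adjusted p = 2.84e-06). ATP5PB (chr1:111449464-111462773), subunit b of the peripheral stalk, was the highest and still non-overlapping, with 2064, 2109 and 2726 in RIP, against 4682, 5397 and 5564 in input (limma adjusted p = 3.7e-05).

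By role, the F1 head had a median log2 difference of -1.73 over 5 genes, the peripheral stalk -1.85 over 4, the c subunits -1.73 over 3, the other membrane subunits -1.57 over 5, and the inhibitor ATP5IF1 -1.25. In the head, the catalytic beta subunit ATP5F1B averaged 7331 ± 1247 in RIP and 24228 ± 2899.9 in input, and the alpha subunit ATP5F1A 3838 ± 512 in RIP and 9981 ± 469 in input (SD, n = 3 each). Their differences were -1.73 and -1.39, with -1.86 for the gamma shaft ATP5F1C and -1.63 for the delta subunit ATP5F1D. All 5 head genes lay without overlap between RIP and input. In the stalk, ATP5PO, the OSCP subunit that joins the stalk to the head and has both an NRF1 motif and a pyrimidine start, had -2.08, ATP5PD -2.02 and ATP5PF -1.69.

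The membrane subunits ATP5MF, ATP5MG, ATP5MJ and ATP5MK had log2 differences of -2.05, -1.35, -1.54 and -1.57. ATP5IF1, which blocks ATP hydrolysis when the proton gradient fails, had 1529, 1887 and 2062 normalized counts in RIP, against 3366, 4545 and 5246 in input. ATP5MF-PTCD1, a read-through of ATP5MF and its neighbour, had at most 9.94 normalized counts in any library, and ATP5MGL, a copy of ATP5MG, had reads in a single input library (8.35). Neither was tested, and reads of both can be shared with the parent gene.

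The c ring of ATP synthase is built from a single mature protein that 3 genes encode with different import sequences. ATP5MC1 (chr17:48892787-48895871) had 429, 618 and 553 normalized counts in RIP, against 1471, 1761 and 2066 in input. ATP5MC2 (chr12:53665170-53681423) had 1458, 1929.9 and 1863 in RIP, against 5236, 6509 and 7492 in input. ATP5MC3 (chr2:175176258-175181710) had 1223, 1696 and 1500.4 in RIP, against 3449.9, 4612 and 4646 in input. All 3 fell without overlap, at log2 differences of -1.73, -1.87 and -1.52.

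Related members were compared through the log2 ratio of their normalized counts within each library, which cancels library scaling and gene length in the difference. For 6 pairs, a two-sided exact permutation test over 3 against 3 libraries can give no p under 0.1. The ratio of ATP5MC2 to ATP5MC3 was 0.25 ± 0.06 in RIP and 0.60 ± 0.10 in input, a difference of -0.35, and that of ATP5MC1 to ATP5MC3 was -1.47 ± 0.04 in RIP and -1.26 ± 0.11 in input, a difference of -0.20 (SD, n = 3 each). ATP5MC1 over ATP5MC2 differed by 0.14. COX7A2L over COX7A2 was 0.80 ± 0.38 in RIP and -0.15 ± 0.22 in input, a difference of 0.95, and COX6B2 over COX6B1 was -5.04 ± 0.94 in RIP and -6.86 ± 0.65 in input, a difference of 1.82. In these 5 pairs the RIP and input libraries did not overlap, which gave the smallest possible exact p of 0.1 for each (0.12 after Benjamini-Hochberg adjustment over 6 pairs), so none passed the threshold. UQCRHL over UQCRH differed by 0.02 with overlapping libraries (exact p = 1).

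**Figure D3:**
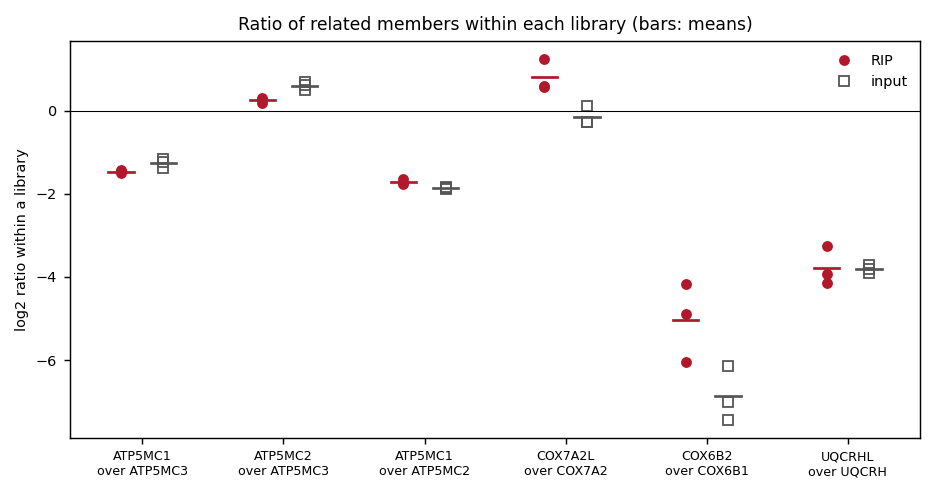
Log2 ratio of 6 pairs of related members within each library, with RIP (filled circles) left of input (open squares) in each pair and bars at the means. The largest separations are for COX6B2 over COX6B1 and COX7A2L over COX7A2; UQCRHL over UQCRH overlaps.

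The size of the shift was set against the level of each gene in input, because lower calls were commoner among well-covered genes. Of 38 members with an input mean of at least 1000 normalized counts, all fell, with a median log2 difference of -1.73. Among all 6927 protein_coding genes at that level the lower share was 38.7% and the median -0.17. Both sets were cut on the input mean alone, which by itself favours lower calls. For some of the 38 members, such as COX8A with a RIP mean of 171, the RIP mean was under 1000. Within the 48 tested members the difference and the input level had a Spearman correlation of -0.20, given as a description over genes of the same libraries. The input values enter both sides of that correlation, so it cannot show whether the shift depends on level. The members below that level were SDHA, SDHAF1, SDHAF2, SDHAF4, UQCRHL, UQCR11, COX6A1, COX6B2, ATP5PO and ATP5MG, and they included all 5 that did not pass the test.

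**Figure D4:**
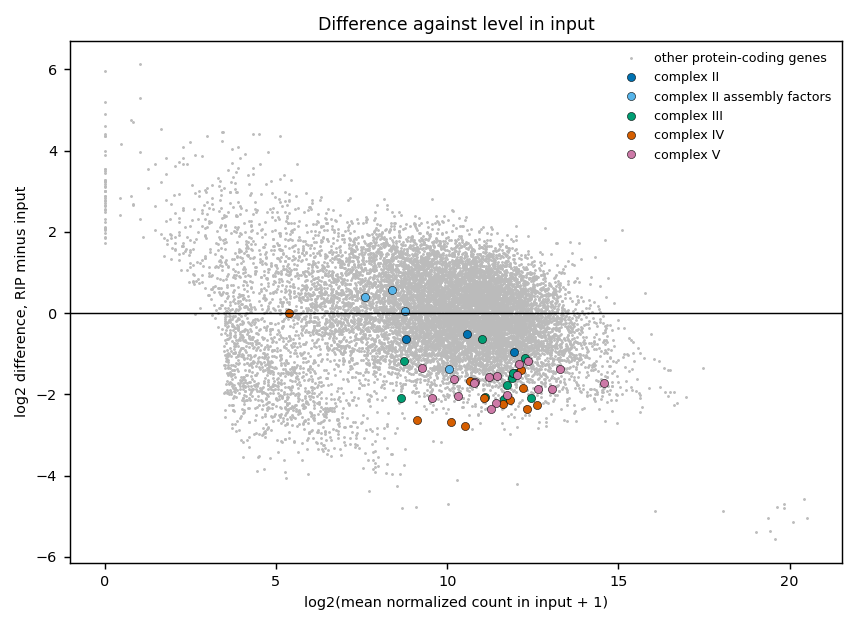
Log2 difference of RIP minus input against log2(mean normalized count in input + 1) for tested protein_coding genes (grey) and the 48 tested members (coloured by complex). The members lie along the lower side of the cloud at levels where most other genes scatter around 0; the group of grey points at the far right below -4 includes the mitochondrially encoded genes.

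Summed over all 52 members, the genes took 0.145%, 0.169% and 0.199% of gene reads in the RIP libraries and 0.341%, 0.377% and 0.403% in the input libraries. The means were 0.171% ± 0.027 in RIP and 0.374% ± 0.031 in input (SD, n = 3 each), 2.18-fold lower in RIP. With mitochondrially encoded and small RNA genes left out of the total the means were 0.173% in RIP and 0.488% in input, 2.82-fold lower in RIP. By complex, RIP held 2.87-fold less of complex IV, 2.22-fold less of complex V, 2.08-fold less of complex III and 1.45-fold less of the complex II subunits as a share of all gene reads. The input libraries differed among themselves: input library 1, with 18.6% mitochondrially encoded reads, had the lowest value for 36 of the 43 lower members, and input library 3, with 26.6%, the highest for 39. The same counts over all genes are not given here, so this order need not be particular to the members. The part of the input differences in the result was not tested, and without any single input library 40 to 43 members remained lower.

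The members were also divided by the promoter motifs shown above. Those with an NRF1 motif had a median log2 difference of -1.46 and those without -1.73. For the ETS motif the medians were -1.69 with it and -1.63 without. The 8 genes with a pyrimidine start had a median of -2.09, and the other members with a promoter -1.57. The 8 genes with a pyrimidine start all belong to complexes III to V, whereas the NRF1 set also held SDHA, SDHD, SDHAF3 and SDHAF4. Motif and complex are therefore mixed in these medians, which describe the members and were not tested.

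Neighbouring genes of the pathway were lower in RIP as well, in part, where 19.9% of all genes tested were lower and 21.1% higher. Complex I, the other large proton pump, had 33 of 37 tested structural subunits lower and 0 higher, with a median log2 difference of -1.48. The lowest of them, NDUFA13 (-2.34) and NDUFV2 (-2.22), had few reads, 0 of them in RIP replicate 2, and did not pass the test. Without RIP replicate 2 they were at -1.49 and -1.003, and complex I again had 33 lower calls. It had 31 without RIP replicate 1, 29 without input library 2 and 28 without input library 3. Under total-count scaling 25 of 37 were lower, with a median of -0.98. At an unadjusted p under 0.05, and by edgeR, DESeq2 and the authors' deposited table, 0 complex I subunits were higher. The highest were NDUFA11 (-0.05), an uncalled gene, and NDUFA5 (-0.63), whose call was lost without input library 3 (-0.58). NDUFA11 was at -0.78 and NDUFA5 at -0.47 without RIP replicate 2, so their order turned. Enzymes of the tricarboxylic acid cycle, which feeds complexes I and II, were listed together with subunits of the pyruvate dehydrogenase complex. Of these 18 genes 16 were lower and 1 higher, with a median of -1.06. Under total-count scaling 11 were lower and 1 higher, with a median of -0.56. MDH2 (-1.78) and IDH2 (-1.71) were the lowest, OGDH (-0.26) did not pass the test but did without RIP replicate 3 (-0.44), and PDHX, the subunit that tethers E3 in the pyruvate dehydrogenase complex, rose (0.41, limma adjusted p = 0.0458), a call that edgeR and DESeq2 did not make and that was lost without RIP replicate 1 (0.40) or 3 (0.32) or input library 2 (0.35) or 3 (0.36).

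The genes listed as assembly factors of complexes III to V were mixed. They act in making the enzymes, or on the RNAs that encode them, without being part of the enzymes. Of 42 tested, 19 fell, 5 rose and 18 did not pass the test, with a median log2 difference of -0.74. The lower share was 24.5% among all tested protein_coding genes and 38.7% among those with an input mean of at least 1000. For complex III 5 of 9 fell and 1 rose (median -0.50), with 2 of 9 lower without input library 2 and 2 of 9 without input library 3. BCS1L, which inserts the Rieske protein, had -0.83, UQCC3 had -1.13 and was not called when either was left out, UQCC4 rose by 1.45 and UQCC6 had 0.18, which did not pass. For complex IV 12 of 28 fell and 4 rose (median -0.91). COX19 and FASTKD3 rose by 1.32 and 1.30, whereas SURF1 had -3.78 with 0 reads in RIP replicate 2, a call lost when any single input library was left out, and COA8 had -2.41 without passing the test. Without RIP replicate 2 these were -1.73 and -0.30, and the complex IV factors had a median of -0.57 with 14 lower and 4 higher. For complex V 2 of 5 fell and 0 rose (median -0.76; 1 lower without RIP replicate 1, input library 2 or input library 3), with FMC1 at -2.46 and TMEM70 at 0.58, neither called (TMEM70 was higher, at 0.79, without RIP replicate 1), ATPAF1 lower at -0.88, and TMEM242 at -0.06, not called. At an unadjusted p under 0.05, 1 complex V factor was higher, as by edgeR and in the authors' deposited table, against 0 by DESeq2. Without RIP replicate 2 FMC1 was at -0.69. Under total-count scaling the 9 complex III factors had 0 lower and 2 higher.

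Regulators of mitochondrial gene expression lay on the other side of 0. Of 12 tested, 7 rose and 0 fell, with a median log2 difference of 0.62, where 21.1% of all genes tested were higher. Under total-count scaling 11 of 12 were higher, with a median of 1.11. None was lower at an unadjusted p under 0.05, by edgeR, by DESeq2 or in the authors' deposited table. PPRC1, a coactivator of NRF1, had 10167, 11024 and 11482 normalized counts in RIP, against 5925, 5954 and 5660.1 in input (log2 difference 0.90), and the nuclear receptor ESRRA rose by 0.82. TFAM (-0.04) and TFB2M (-0.76), which act on mitochondrial DNA itself, were the lowest and did not pass the test. They were at -0.08 and -0.35 without RIP replicate 2.

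The mitochondrially encoded partners of complexes III to V had lower log2 differences than any of the nuclear members. All 6 fell, with a median of -4.78. MT-CYB, the cytochrome b of complex III, had -4.77. MT-CO1, MT-CO2 and MT-CO3, the catalytic core of complex IV, had -4.58, -4.79 and -4.70, and MT-ATP6 and MT-ATP8 of complex V had -5.35 and -5.55. MT-CO1 had 59319, 55723 and 57981 normalized counts in RIP, against 1108158, 1386783 and 1721719 in input. These RNAs are made and kept inside mitochondria, whereas the nuclear members are cytoplasmic mRNAs.

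**Figure D5:**
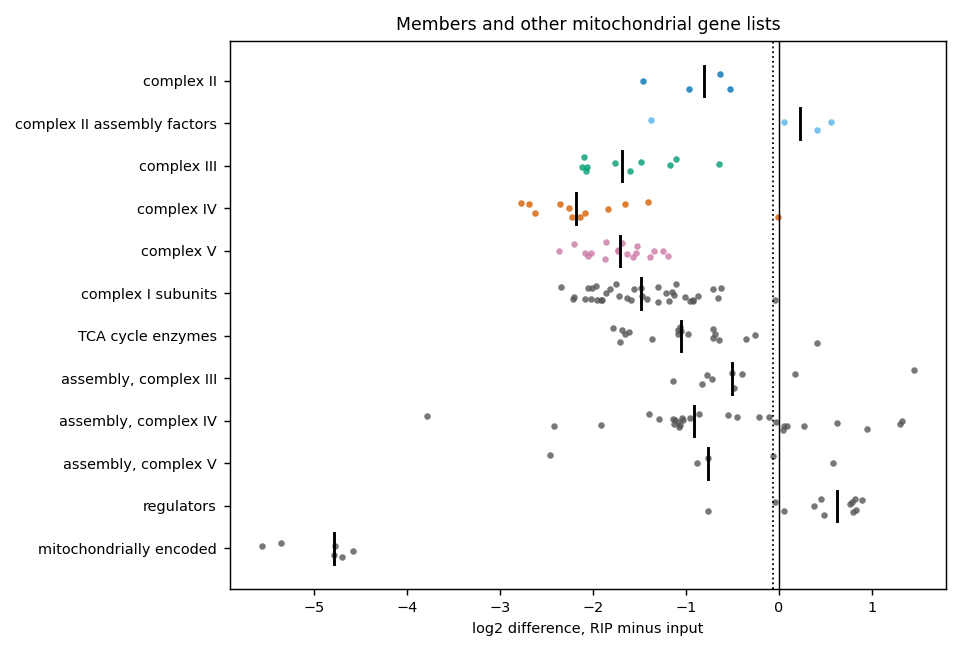
Log2 difference of RIP minus input for each tested gene of the complexes and of neighbouring gene lists; vertical bars are list medians, the dotted line is the median of all genes and the solid line 0. Complex I subunits overlap the range of complexes III to V, regulators lie mostly right of 0, and the 6 mitochondrially encoded genes lie below -4.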

How the data were processed

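RNA from HEK293T cells was measured in 3 RIP and 3 input libraries. The submitters' processing notes name STAR, featureCounts, DESeq2 and the build GRCh38; tool versions, strand setting and annotation release were not stated there. The deposited values are normalized counts (a signal): reads per gene over a library's size factor, as the authors computed them. Dividing a column by its smallest step gave whole reads, within 0.01 of a read, for 100% of values. The authors' deposited table also gives DESeq2's log2 fold change, its standard error, the Wald statistic (a score), p-values and adjusted p-values, per the file headers. Its log2 fold equalled the ratio of the column means within 0.002 for all 7254 genes with a mean over 1000, so it rests on the same 3 input columns.

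The input columns were matched only to the input group. The main test was limma-trend (R 4.3.3, limma 3.58.1) on log2(normalized count + 1), on genes with a mean of at least 10 in RIP or in input, with Benjamini-Hochberg adjustment over all 17669 of them. On the recovered reads, edgeR's quasi-likelihood test (4.0.16) called 3327 genes lower and 3757 higher and DESeq2 (1.42.0) 3659 and 3793, against 3516 and 3726 by limma. Differences are between group means of log2(value + 1), a scale that shrinks changes of low genes but gives a library at 0 a large weight. The members and lists were chosen with earlier results of these data known. Values per library are given for the 2 lowest and the highest member of each complex, every member not called and both members of each pair, and for neighbouring lists the 2 lowest and 2 highest genes are named. Others were named after their values were seen. Positions were matched by symbol for all 52 members, and 21 overlap another RefSeq gene, with which unstranded reads could be shared. The labels do not say that replicates were separate cultures, and p-values then cover only the spread among these libraries. Reads carry no molecular identifiers. A marker of another cell type is not reported here.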

Additional observations from a re-analysis of the deposited data

How the results depend on the processing

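With the number in the column names as a replicate block, limma called 3911 genes lower and 4049 higher and the same 43 members lower. Deviations from the group means correlated, over 17669 genes, at 0.072, 0.047 and 0.082 between same-numbered RIP and input libraries and at -0.045 to -0.017 between the others, and nothing else ties these libraries into pairs. The same 43 members were lower by edgeR, DESeq2 and in the authors' deposited table, and with a pseudocount of 0.5 or 5, no filter, a minimum of 100, TMM scaling or protein_coding rows only. Total-count scaling gave 1631 genes lower and 6099 higher, 40 members lower and 1 higher, and medians of -0.31 (complex II), 0.72 (its assembly factors), -1.19 (III), -1.69 (IV), -1.22 (V) and -1.18 (all members). Scaling without mitochondrial and small RNA genes left 41 members lower and changed the input share to 0.488%. A 2-fold minimum left 1772 genes lower and 1902 higher. Without each library in turn, 2757 to 3547 genes were lower and 3031 to 3563 higher, with 40 to 43 members lower and 0 higher, and medians ran from -1.09 to -0.61 (complex II), 0.06 to 0.46 (assembly factors), -1.84 to -1.59 (III), -2.40 to -2.03 (IV), -1.79 to -1.59 (V) and -1.78 to -1.58 (all). SDHD and UQCRFS1, with the scaling without mitochondrial and small RNA genes, were -0.39 and -0.51 and not called. The sign of COX6B2 turned with a pseudocount of 5 (0.0093), total-count scaling (0.47), scaling without mitochondrial and small RNA genes (0.12), TMM (0.0063), edgeR (0.17), DESeq2 (0.12), the authors' deposited table (0.14), and without RIP replicate 2 (0.56), input library 1 (0.22) or 3 (0.02), the lowest value being -0.38 without RIP replicate 1. SDHAF4 turned without RIP replicate 1 (-0.0076) or 3 (-0.24) or input library 1 (-0.06), with 0.40 at most. The UQCRHL to UQCRH ratio turned without input library 2 (-0.03) or RIP replicate 3 (-0.24), and ran from -0.24 to 0.20. The causes were not tested. The other ratio differences ran from -0.27 to -0.16 (ATP5MC1 to ATP5MC3), -0.39 to -0.30 (ATP5MC2 to ATP5MC3), 0.10 to 0.16 (ATP5MC1 to ATP5MC2), 0.73 to 1.08 (COX7A2L) and 1.39 to 2.33 (COX6B2). Against the mean of all 6 inputs, 8 members moved by over 1 SD without a change of sign, and COX6B2 was at 0.79. Leaving out UQCRHL was chosen after seeing the data. Depth limits COX6B2 and the 4 untested members.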

Other observations

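Of the tested members whose RefSeq gene overlaps another annotated gene, 17 of 18 were lower, with a median log2 difference of -1.73. Of those that stand alone 26 of 30 were lower, with a median of -1.58. Neither the difference between these sets nor a sharing of reads was tested. The mean of the 3 input libraries without a column, derived from the deposited mean, was 4240.0 normalized counts for CNOT7, against 24800 in the 3 input columns used here. For COX7A2L the same derived mean was 6279.6 normalized counts and for COX6B1 3332, so that over all 6 inputs their log2 differences were -1.66 and -1.60.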
